A study of Mus musculus with 8 samples.

Results

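Elane, Mpo, Prtn3, Ctsg, Ms4a3 and Prss57 are 6 genes whose products mark the azurophil (primary) granules of neutrophils or the progenitors that make them. They were taken by symbol from 32285 genes counted, and all 6 were present. Elane (neutrophil elastase), Prtn3 (proteinase 3), Ctsg (cathepsin G) and Prss57 (neutrophil serine protease 4) code for serine proteases, and Mpo codes for myeloperoxidase, the enzyme that makes hypochlorous acid. Ms4a3 codes for a membrane protein of granulocyte and monocyte progenitors and is not a granule enzyme, so the name "azurophil granule genes" covers 5 of the 6 by content.

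Brain cells positive for CD45.2 were sorted from mice after perfusion, and 8 libraries were made from them with a 5′ kit of 10x Genomics. WT mice were C57BL/6J. App NL-G-F mice carry a humanised and mutated amyloid-beta sequence within their own App gene, which the gene's own promoter drives. For each genotype there was 1 library of control mice that drank water, 1 of acute colitis (2% dextran sulfate sodium, DSS, in the drinking water for a week), 1 of chronic colitis (3 cycles of 2% DSS alternating with water) and 1 of food allergy to ovalbumin, and the labels give an age of 16 weeks in all. Each library pooled samples marked with hashtag antibodies, 30 hashtag groups in all, and the labels tie no hashtag to an animal. Cells within blood vessels had been stained by an intravenous CD45 antibody, a stain that is not part of the counts. As no condition was repeated as a library, p-values rest on the spread between pooled libraries that genotype and treatment, added together, do not explain. This spread mixes any dependence of genotype differences on treatment with noise between libraries, which may in part be technical. For each gene the spread estimate also draws on the other genes.

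Azurophil granules are filled at the promyelocyte stage, when the genes of their enzymes are transcribed at high levels. As the cells pass to the myelocyte stage this transcription stops, and the genes of the secondary granules (Ltf, Camp, Ngp, Lcn2) are switched on. The proteins stay in the granules of the mature neutrophil while their transcripts are lost, and granulocyte-monocyte progenitors and young basophils are known to carry some of the same transcripts.

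In the GRCm38 genome (GENCODE vM21), 3 of the 6 genes lie close together on chromosome 10. Elane (ENSMUSG00000020125) lies at chr10:79886247-79888215 on the plus strand, 3073 bases after the end of Prtn3 (ENSMUSG00000057729, chr10:79874476-79883174, plus strand). Prss57 (ENSMUSG00000020323, chr10:79781474-79790961, minus strand) ends 83515 bases before Prtn3. Mpo (ENSMUSG00000009350) lies at chr11:87793581-87804413 on the plus strand, Ctsg (ENSMUSG00000040314) at chr14:56099881-56102574 on the minus strand, and Ms4a3 (ENSMUSG00000024681) at chr19:11629496-11640851 on the minus strand. All are protein-coding. RefSeq promoters (GRCm38.p6) were matched for 5 of the 6.

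The following stretches before the RefSeq start of each matched gene are shown because they hold the letters GGAAGT, printed in capitals. These letters include the GGAA core that ETS factors such as Spi1 (PU.1) bind, and Spi1 was among the myeloid transcription factors measured. All are printed 5′ to 3′ on the strand of the gene. The Prtn3 stretch lies inside the GENCODE span of Prtn3 given above, because its RefSeq start lies after the GENCODE start.
Prtn3, chr10:79879544-79879613, plus strand: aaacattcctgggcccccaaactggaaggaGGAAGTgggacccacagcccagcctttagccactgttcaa
Elane, chr10:79886199-79886246, plus strand: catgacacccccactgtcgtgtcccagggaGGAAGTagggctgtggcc
Mpo, chr11:87793534-87793580, plus strand: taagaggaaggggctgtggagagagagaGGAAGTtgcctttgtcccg
Ctsg, chr14:56102696-56102809, minus strand: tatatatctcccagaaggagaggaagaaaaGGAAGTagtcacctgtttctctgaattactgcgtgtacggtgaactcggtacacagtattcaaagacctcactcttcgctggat
Ms4a3, chr19:11640852-11640936, minus strand: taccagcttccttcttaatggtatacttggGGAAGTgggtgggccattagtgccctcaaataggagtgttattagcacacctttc

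GGAAGT stood on the plus strand of the gene in 5 of the 5 promoters, from 55 bases (Ms4a3) to 222 bases (Mpo) before the start, whereas 19.7% of 32851 promoters held it on either strand in the 250 bases searched. AACGG, letters of the site of Myb, stood in 2 of the 5 (Prtn3 and Elane) and in 14.5% of all promoters. ATTGC, letters of the C/EBP site, stood in 2 (Elane and Mpo) against 23.1%, and TATAA in 3 (Prtn3, Elane and Ctsg) against 22.8%. None of the matches shared a base with another, both strands were searched, and the letters were chosen after the sequences had been seen. A match is a description of the letters.

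In all, 50141 cells were kept, with 25620994 to 54618574 UMIs (unique molecular identifiers, 1 for each captured transcript) per library. Pairs of libraries shared 34 to 72 cell barcodes (median 56.5 over 28 pairs). Clusters were named from marker lists that hold none of the 6 genes, and the 6 genes were kept out of the clustering. The classes read here were 1027 progenitors, 362 neutrophil precursors (9 of 9 markers, led by Fcnb and Cebpe), 4252 neutrophils, 1383 monocytes, 415 basophils and 30625 lymphocytes. A further 2006 cells fell into 2 clusters led by Elane, Ctsg, Prtn3 and Mpo. The monocyte list matched these clusters best, with 6 and 5 of its 7 markers. They were given no cell type name because the 6 genes or histone genes led them, and they are called Elane-led cells. They were set apart by the 6 genes themselves, after the clusters had been seen. High levels of the 6 genes in them follow from this choice and are a description. The sort, the pooling and rebuilt class names can set class sizes, and class shares are not compared here.

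The 6 genes were carried by a small part of the cells. Of their 887629 UMIs, 76.8% were in the Elane-led cells, which made up 4.0% of all cells, 10.3% in progenitors, 2.13% in neutrophil precursors, 1.78% in basophils, and 0.38% each in neutrophils and monocytes. Lymphocytes, 61.1% of the cells, held 1.35%, and clusters with no name, other than the Elane-led cells, held 6.21%. In CPM, a gene's share of all UMIs of the class's cells on a scale where 10000 CPM is 1%, the summed level was 15789 ± 3495 in Elane-led cells, 7146 ± 2604 in progenitors, 6154 ± 2729 in basophils, 3280 ± 4461 in neutrophil precursors, 317 ± 148 in monocytes, 110 ± 82.1 in neutrophils and 97.6 ± 155 in lymphocytes (SD, n = 8 libraries). In lymphocytes, which should not transcribe these genes, the level gives the background. It was uneven between lymphocyte types. Elane averaged 124 ± 251 CPM in plasma cells (SD, n = 8) and 3.36 (NK cells) to 9.57 (B cells) in the others.

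**Figure D1:**
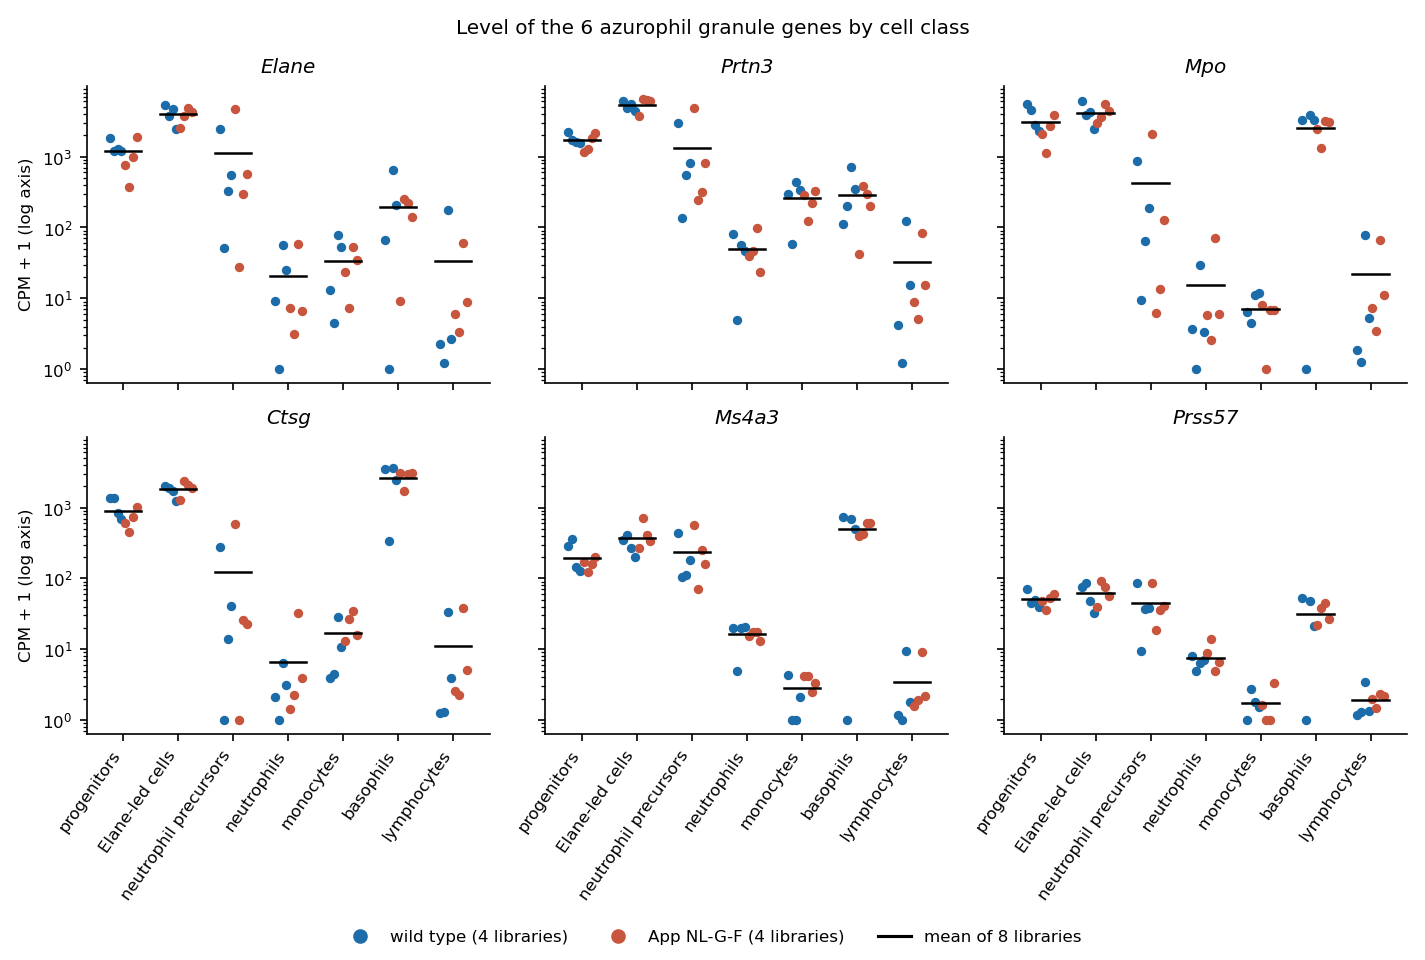
Level of each gene in each cell class, as CPM + 1 on a log axis. Each point is 1 library (blue, WT; red, App NL-G-F) and each bar the mean of 8 libraries. All 6 genes sit highest in Elane-led cells, progenitors or basophils, and Elane in precursors runs from 26.4 to 4697 CPM. Elane-led cells were set apart by these genes.

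Elane had a lowest, median and highest level of 2425, 4015 and 5268 CPM in Elane-led cells, 369, 1197 and 1919 in progenitors, and 26.4, 439 and 4697 in precursors. In neutrophils it was at 0 to 57.5 CPM (median 7.17) and in lymphocytes at 0.21 to 178 (median 3.67). The ranges of Elane-led cells and progenitors did not overlap, whereas the precursors spanned the range between neutrophils and Elane-led cells. Elane-led cells were set apart by these genes, so their high level of Elane follows from that choice.

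Prtn3, the gene next to Elane, reached 3691, 5837 and 6403 CPM in Elane-led cells, 1161, 1664 and 2219 in progenitors, and 136, 679 and 4863 in precursors. It was also found in monocytes, at 57.5, 292 and 432 CPM, where Elane was at 3.48, 27.9 and 76.3. In the order of mean levels over cell types, counting libraries with at least 10 cells of a type, neighbours overlapped for nearly every pair. The exceptions among the 5 highest types of each gene were Prtn3 in Elane-led cells, set apart by these genes, above progenitors and Ms4a3 in progenitors above erythroid cells.

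Mpo was at 2469, 4118 and 6135 CPM in Elane-led cells, 1140, 2759 and 5525 in progenitors, and 0, 3112 and 3847 in basophils. The basophil value of 0 came from WT acute colitis, with 9 basophils. Ctsg was at 338, 3038 and 3576 CPM in basophils, 1236, 1880 and 2335 in Elane-led cells, and 456, 794 and 1371 in progenitors. The classes at the top overlapped for both genes.

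Ms4a3 was at 0, 551 and 732 CPM in basophils, 198, 343 and 700 in Elane-led cells, 70.4, 171 and 569 in precursors and 124, 164 and 356 in progenitors, 4 ranges that overlapped. Prss57 was the member with the fewest UMIs, at 31.8, 64.5 and 91.7 CPM in Elane-led cells, 34.95, 48.2 and 68.9 in progenitors and 8.51, 37.0 and 86.3 in precursors. It was also found in plasmacytoid dendritic cells (13.2 ± 5.42 CPM, range 5.14 to 20.5) and type 1 dendritic cells (9.56 ± 3.995 CPM, range 4.11 to 15.1; SD, n = 8), where Elane was at 2.53 and 3.18 CPM. In lymphocytes Prss57 was at 0.18 to 2.44 CPM.

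With each cell thinned to 1000 UMIs, shares of cells with a UMI kept the order of levels for Prtn3 in the classes listed below. This was not so for all 6 genes. Mean thinned shares of Prss57 were 4.92% in progenitors, 3.76% in precursors and 2.60% in Elane-led cells. Those of Ms4a3 were 21.3% in precursors, 18.0% in Elane-led cells and 17.5% in basophils. Prtn3 was detected in 78.7% ± 13.8 of Elane-led cells (96.0% unthinned), 41.2% ± 4.30 of progenitors (67.1%), 28.4% ± 21.9 of precursors (60.0%), 16.1% ± 9.30 of monocytes (45.7%), 2.13% ± 1.30 of neutrophils (11.4%) and 0.85% ± 0.62 of lymphocytes (2.13%; SD, n = 8). Median depths before thinning were 15750 to 29054 UMIs per Elane-led cell, 1856.5 to 12425 per neutrophil and 2362 to 3156.5 per lymphocyte, and 777 lymphocytes, 180 neutrophils and 1 to 33 cells of each other class had fewer than 1000 UMIs and were left out. Several of the 6 genes were often found together, as 25.9% of Elane-led cells had a UMI of all 6, against 10.9% of progenitors, 6.91% of precursors, 3.13% of basophils and 0.07% of neutrophils. No UMI of any of the 6 was found in 94.8% of lymphocytes, 75.2% of neutrophils and 16.0% of precursors.

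The background was measured in lymphocytes and in empty droplets. The 6 genes summed to 275 to 6253 CPM in empty droplets, and lymphocytes held 0.43 to 10.1% of that level. WT chronic colitis (421 CPM) and App NL-G-F chronic colitis (256 CPM) had the highest lymphocyte levels, against 1.27 to 38.8 CPM in the other 6 libraries. In these libraries 5577 of 6035 and 4003 of 4314 UMIs lay in 12 and 19 lymphocytes with at least 10 UMIs of the 6 genes, of which 8 and 18 carried several hashtags. Without such cells the levels were 32.9 and 18.7 CPM.

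The share of each gene among the UMIs of the 6 differed between classes. This share needs no correction for length, since a 5′ kit counts 1 UMI per captured transcript. In Elane-led cells Prtn3 made up 34.8% ± 3.31, Mpo 26.1% ± 2.92, Elane 24.8% ± 2.11 and Ctsg 11.6% ± 1.25 (SD, n = 8), close to the 35.2%, 25.01%, 26.3% and 9.86% of the empty droplets. In progenitors Mpo led with 42.4% ± 5.22, and Elane made up 16.3% ± 3.505. In monocytes Prtn3 alone made up 81.9% ± 6.56, and in basophils Ctsg made up 44.7% ± 8.56, Mpo 36.4% ± 15.3 and Elane 2.73% ± 2.56. In precursors the shares moved towards Prtn3 (45.7% ± 9.99), Elane (27.5% ± 10.1) and Ms4a3 (15.0% ± 10.5), with Mpo at 7.21% ± 5.41 and Ctsg at 1.97% ± 1.69.

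**Figure D2:**
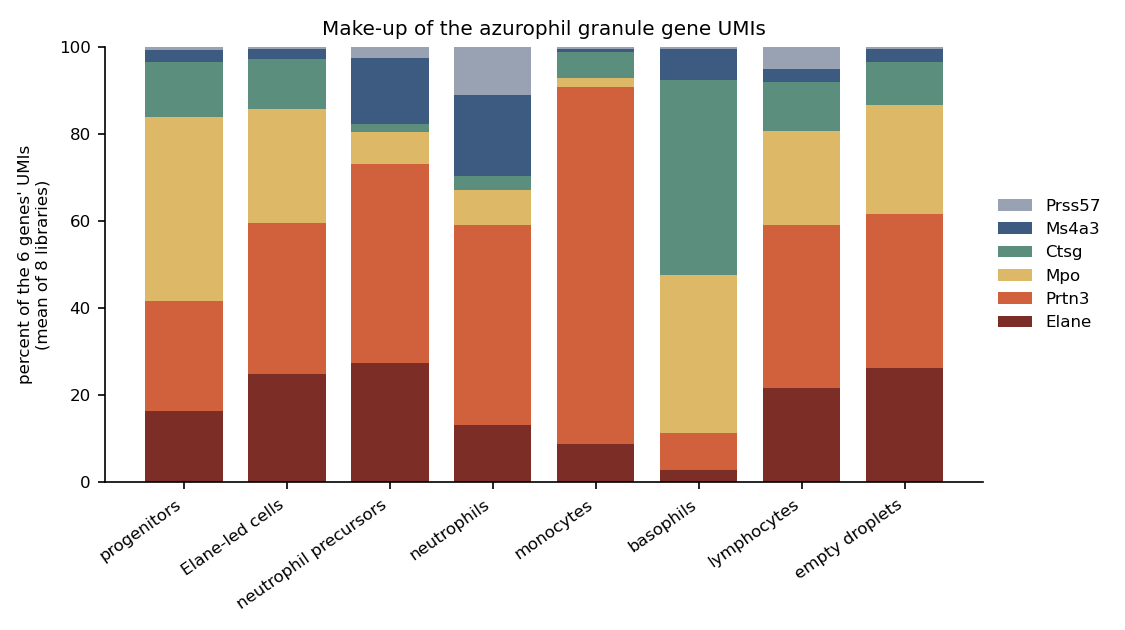
Share of each gene in the summed UMIs of the 6 genes, in percent, as the mean of 8 libraries for each cell class and for empty droplets. Monocytes are led by Prtn3 (81.9%), basophils by Ctsg and Mpo (44.7% and 36.4%), and the Elane-led cells have nearly the shares of the empty droplets.

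Ratios within a library showed the same differences without a total. The median ratio of Prtn3 to Elane UMIs was 1.37 (range 1.16 to 1.81, 8 libraries) in Elane-led cells, 1.35 (1.13 to 3.49, 8 libraries) in progenitors, 4.14 (1.02 to 21.3, 7 libraries) in neutrophils and 8.15 (4.29 to 24.2, 6 libraries) in monocytes. The lowest monocyte ratio lay above the highest ratio of the Elane-led cells. The median ratio of Mpo to Elane was 0.29 (0.042 to 0.44, 6 libraries) in precursors, 1.04 (0.91 to 1.18, 8 libraries) in Elane-led cells, 2.77 (1.90 to 3.82, 8 libraries) in progenitors and 15.0 (5.36 to 50.5, 6 libraries) in basophils, 4 ranges that did not overlap.

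Neutrophils, which outnumbered their precursors in every library, kept little of these transcripts. A level was read as above background where the lower bound of its exact Poisson 95% interval, which covers counting error only, exceeded the lymphocyte level of the same library. By this rule Ms4a3 and Prss57 were above background in neutrophils of 8 of 8 libraries, Prtn3 in 7, Elane in 2, Mpo in 1 and Ctsg in 0. Ms4a3 was at 3.97, 16.5 and 19.9 CPM (lowest, median and highest) and Prss57 at 3.93, 5.79 and 12.8, against 0 to 8.30 and 0.18 to 2.44 in lymphocytes. In WT acute colitis each was at 3.97 CPM from 2 UMIs, against 0 (Ms4a3) and 0.28 CPM (Prss57) in lymphocytes. The rule takes the lymphocyte level without its counting error, so these passes are weak. Prtn3 was at 3.97, 45.0 and 98.8 CPM, the lowest from 2 UMIs in 180 neutrophils of WT acute colitis. The library that did not pass for Prtn3 was WT chronic colitis, at 56.3 CPM against 123 in its lymphocytes. Mpo reached 69.3 CPM in App NL-G-F chronic colitis and 28.7 in WT chronic colitis, and 0 to 4.99 in the other 6 libraries. The lymphocyte level was highest in the same pair of libraries, where it lay mostly in the 12 and 19 cells described above. When lymphocytes with at least 10 UMIs of the 6 genes were left out of the background, a choice made after seeing the data, the neutrophils of 8 libraries passed for Prtn3, 4 for Elane, 3 for Mpo and 2 for Ctsg. Both chronic libraries passed for all 6 genes under that background. No cells were left out of the neutrophils in this comparison. Over all libraries, Ms4a3 was at 24.3 CPM in 1189 neutrophils of a cluster led by Fosl1, G0s2 and Ltf. Clusters led by Lipg (1219 cells), Mmp9 (804) and Acod1 (1040) held it at 16.3, 11.3 and 0.71 CPM. In the same order of clusters, Prtn3 was at 58.3, 44.7, 66.1 and 16.6 CPM and Prss57 at 7.57, 12.7, 4.09 and 3.08.

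In monocytes Prtn3 was above background in 8 of 8 libraries, Ctsg in 6, Elane in 5, Mpo in 3, Ms4a3 in 2 and Prss57 in 0. With the background without those lymphocytes, Ctsg passed in 8 and Elane in 7, and the other counts were the same. Prtn3 was lowest in the libraries of acute colitis, at 57.5 CPM (WT) and 121 (App NL-G-F), and at 220 to 432 CPM in the other 6. The acute libraries had 33 and 38 UMIs of Prtn3 in 90 and 74 monocytes. Prss57 was not detectable above the background in monocytes at this depth, with 6 UMIs in all.

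Basophils, blood granulocytes that carry histamine and the protease Mcpt8, held Ctsg at 2913 ± 656 CPM, against 889 ± 340 in progenitors, and Mpo at 2926 ± 806, against 3128 ± 1437 (SD, n = 7 libraries with at least 10 basophils and 8 with progenitors). Elane was at 219 ± 206 CPM in basophils and 1190 ± 512 in progenitors. After thinning to 1000 UMIs, 175 basophils had a UMI of Mpo or Ctsg and 214 had none. Over all their UMIs, cells with a UMI held more Mcpt8 (9345 against 1713 CPM), Cpa3 (3299 against 961), Mki67 (264 against 60.8) and the progenitor marker Cd34 (66.3 against 9.13), each in 7 of 7 libraries compared. Cd200r3, a receptor of basophils, was lower in them (435 against 808 CPM, higher in 0 of 7), and so was Ccl4 (315 against 1781, higher in 1 of 7). These genes were chosen after their values had been seen, and the cells with a UMI had a median of 9565 UMIs, against 2586.5. The split used Mpo and Ctsg, but Elane (247 against 10.6 CPM) and Ms4a3 (766 against 63.9) differed the same way, in 7 and 6 of 7 libraries.

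Progenitors were not uniform. The 701 cells of a cluster led by Cd34, Adgrl4 and Adgrg1 held Mpo at 4335 CPM, Prtn3 at 2540, Elane at 1685, Ctsg at 1249, Ms4a3 at 260 and Prss57 at 74.3, over all libraries. The 326 cells of a cluster led by Car1, a carbonic anhydrase of early erythroid cells, held Mpo at 30.5 CPM, Prtn3 at 107, Elane at 83.5, Ctsg at 6.50, Ms4a3 at 19.3 and Prss57 at 3.94. Both clusters had all or most of the progenitor markers (10 and 8 of 10). Over the 7 libraries with at least 10 cells of the Car1 cluster, Elane ran from 1.29 to 1512 CPM. This overlapped its range of 714 to 2992 CPM in the Cd34 cluster. Mpo (2.57 to 369 CPM) and Prtn3 (46.3 to 623) stayed below their lowest values in the Cd34 cluster, 2233 and 1901 CPM.

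The Elane-led cells also held 2 clusters, and the 6 genes were present in both. The 971 cells led, after the 6 genes, by Gm11505, Dmkn and Plppr3 had Prtn3 at 6859 CPM, Mpo at 5813, Elane at 5464, Ctsg at 2394, Ms4a3 at 504 and Prss57 at 85.3. The 1035 cells led, after the 6 genes, by Fn1, Mtfr2 and Nrg1 had Prtn3 at 4652 CPM, Elane at 2937, Mpo at 2834, Ctsg at 1408, Ms4a3 at 282 and Prss57 at 40.6. Among other genes, Elane-led cells held the monocyte markers Ly6c2 at 3237 ± 574 CPM and F13a1 at 1346 ± 161, Ctsc (cathepsin C, which activates the serine proteases) at 520 ± 125, and the monocyte factors Irf8 at 353 ± 85.1 and Klf4 at 157 ± 34.1 (SD, n = 8). Cebpe, the factor needed for secondary granules, was at 33.4 ± 16.8 CPM in them and Ltf at 54.7 ± 47.5. In neutrophil precursors the order was the opposite, with Cebpe at 526 ± 74.8 CPM, Ltf at 10754 ± 1893, Ctsc at 32.3 ± 34.1, F13a1 at 39.3 ± 44.5, Irf8 at 3.497 ± 6.38 and Klf4 at 2.21 ± 2.69. Among promyelocyte companions, Calr was at 414 CPM in Elane-led cells against 49.5 in precursors, and Igfbp4 at 322 against 80.6. Cst7 and Nkg7 were higher as well, whereas Fcnb (46.2 against 368), Hdc, Mgst1, Clec5a and Alas1 were lower. Cebpa (72.7 against 4.12) and Myb (101 against 35.7) were higher. The monocyte markers Csf1r and Vcan were at 134 and 23.9 CPM in Elane-led cells. Most of the UMIs of the 6 genes were thus in cells with monocyte markers, some promyelocyte companions and little Cebpe. The cells with neutrophil precursor markers held little of them. That marker list includes the secondary granule genes Camp, Ngp and Ltf, and clusters led by the 6 genes got no name. This division of the UMIs therefore follows in part from the naming.

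Within the neutrophil precursors, mean levels of the 6 genes were highest in the cells with the lowest share of secondary granule transcripts, though those transcripts were present in all groups of cells. The precursors of each library were divided into 3 equal groups by the share of their UMIs from Ltf, Camp, Ngp and Lcn2 (3.27 to 13.3% in the low group, 10.2 to 15.6% in the middle and 13.4 to 17.6% in the high group), and CPM were computed without these 4 genes in the total. Elane was at 3646 CPM in the low group, 142 in the middle and 47.6 in the high group. Mpo was at 1386, 34.4 and 10.4 CPM, Prtn3 at 3724, 726 and 227, and Ctsg at 394, 3.92 and 1.99. Ms4a3 and Prss57 declined less, from 471 to 206 and 139 CPM and from 89.2 to 31.8 and 27.9 CPM.

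On the log2(CPM + 1) scale, the low group exceeded the high group by 5.99 ± 1.70 for Elane, 5.71 ± 2.38 for Mpo, 4.85 ± 3.69 for Ctsg, 4.27 ± 2.02 for Prtn3, 1.33 ± 1.11 for Ms4a3 and 1.24 ± 1.35 for Prss57 (SD, n = 8). The low group was higher in 8 of 8 libraries for Elane, Mpo and Prtn3, in 7 for Ms4a3 and in 6 for Ctsg and Prss57, and Ctsg was at 0 in all 3 groups of both acute libraries. WT acute colitis had 9 precursors, and its difference of Mpo (4.77) rests on 1 UMI and that of Elane on 6. In App NL-G-F acute colitis the difference of Mpo rests on 3 UMIs. These libraries are part of the counts, means and SDs above. The groups were made from a measured value, so this is a description of how the genes go together across cells, with no test. With cells thinned to 1000 UMIs the difference of Prss57 was -0.48, so its direction is not settled, and that of Ms4a3 was 2.995.

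**Figure D3:**
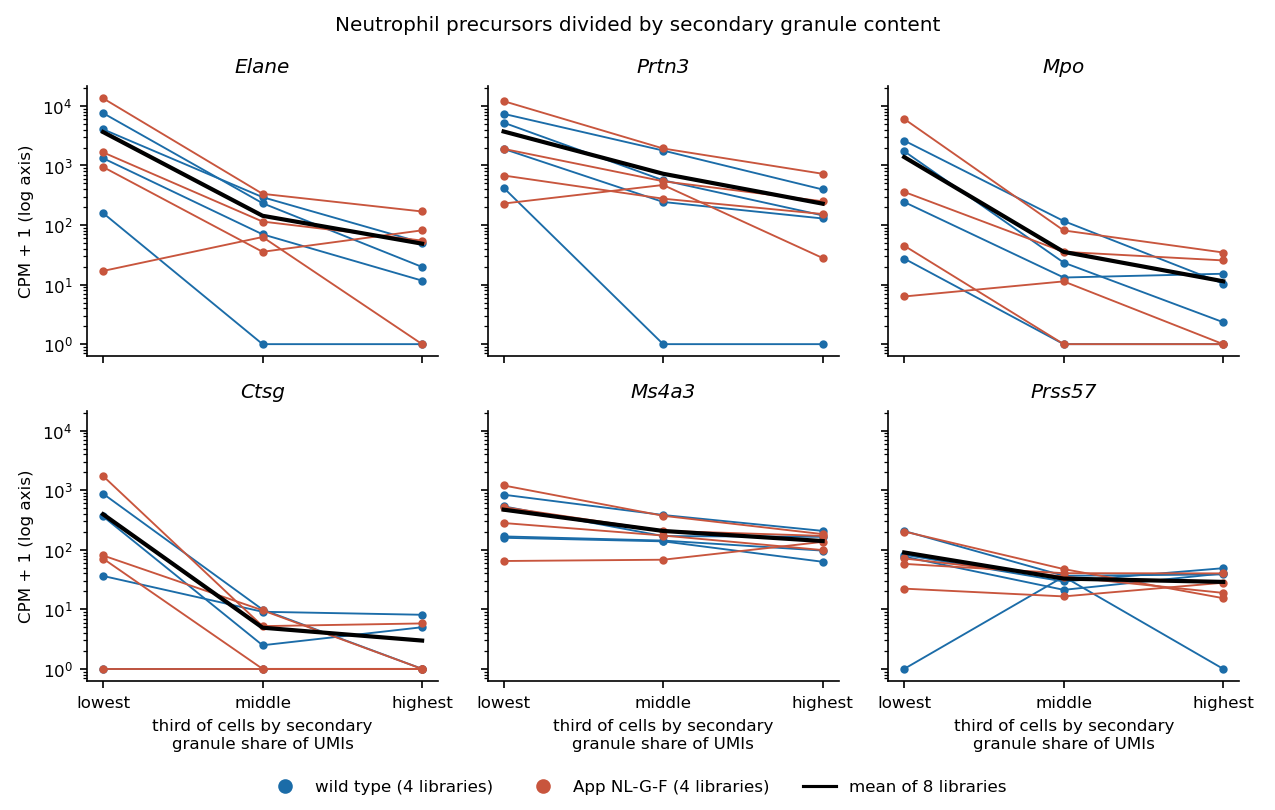
Level of each gene in neutrophil precursors divided, within each library, into 3 groups by the share of UMIs from Ltf, Camp, Ngp and Lcn2. The vertical axis is CPM + 1 without these 4 genes, on a log axis, each thin line is 1 library (blue, WT; red, App NL-G-F) and the black line is the mean of 8 libraries. Elane goes from 3646 to 47.6 CPM, whereas Ms4a3 goes from 471 to 139.

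Most UMIs of the 6 genes in precursors lay in few cells. In App NL-G-F control 11 of 41 precursors had at least 100 UMIs of the 6 genes and held 90.6% of them, and in WT control 6 of 18 cells held 89.4%. Such cells numbered 1 of 72 in WT chronic colitis, 7 of 119 in WT food allergy, 5 of 45 in App NL-G-F food allergy and 0 in App NL-G-F chronic colitis and both acute libraries, which had 9 (WT) and 31 (App NL-G-F) precursors. In summed data, fewer early cells and less RNA per cell cannot be told apart.

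Acute colitis was compared with control over both genotypes. Elane was at 2480 CPM (WT) and 4697 (App NL-G-F) in control precursors and at 51.1 and 26.4 in acute colitis. It was at 330 and 298 CPM in chronic colitis and at 547 and 559 in food allergy, so the 4 treatments did not overlap. Mpo was at 869 and 2083 CPM in control, 8.51 and 5.28 in acute colitis, 64.5 and 12.4 in chronic colitis and 189 and 127 in food allergy. Prtn3 was at 2975 and 4863 CPM in control, 136 and 241 in acute colitis, 553 and 313 in chronic colitis and 804 and 805 in food allergy. Both control libraries lay above all other libraries for these 3 genes.

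Ctsg was at 280 and 589 CPM in control, at 0 in both acute libraries, at 12.9 and 24.8 in chronic colitis and at 39.9 and 21.7 in food allergy. Ms4a3 was at 437 and 569 CPM in control, 102 and 70.4 in acute colitis, 111 and 253 in chronic colitis and 181 and 161 in food allergy. Prss57 was at 86.3 CPM in both control libraries, 8.51 and 17.6 in acute colitis, 36.3 and 34.8 in chronic colitis and 37.7 and 39.2 in food allergy. The acute values rest on few UMIs, with 6 (WT) and 15 (App NL-G-F) of Elane, 1 and 3 of Mpo and 1 and 10 of Prss57.

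In edgeR's quasi-likelihood test on summed UMIs (5827 genes tested, Benjamini-Hochberg adjustment over all of them), 16 genes, or 0.275%, passed an adjusted p of 0.05 as lower in acute colitis and 0 as higher, and 5 of the 6 genes were among the 16. An unadjusted p under 0.05 was found for 11.1% of the genes. Elane fell by 6.53 on the log2 scale (SE 0.53, adjusted p = 0.000225), Mpo by 7.69 (SE 0.90, adjusted p = 0.00307), Prtn3 by 4.08 (SE 0.48, adjusted p = 0.00307) and Ms4a3 by 2.42 (SE 0.42, adjusted p = 0.0392). Ctsg passed as well (edgeR adjusted p = 0.00307). As it had no UMI among 685952 in the acute libraries, which allows up to 4.37 CPM (3 counts over both libraries), it was at least 111-fold lower than its 487 CPM over both control libraries. Prss57 had a log2 difference of -2.20 (SE 0.42) and did not pass (edgeR adjusted p = 0.0637). Counting intervals and this limit cover counting error only.

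These calls depended on which cells were counted as precursors. With cells of high doublet score left out, 7 of the 18 WT control precursors were lost, Elane there was at 118 CPM, and 0 genes passed (edgeR, log2 difference of Elane -6.95, adjusted p = 0.293). At a clustering resolution of 1.0, Elane was at 937 CPM in App NL-G-F acute colitis and 0 genes passed (edgeR, -2.90, adjusted p = 0.323). With the 6 genes used to cluster, WT acute colitis reached 3675 CPM, and none of the 6 was among the 6 genes that passed (edgeR, Elane -0.66, adjusted p = 0.715). Without App NL-G-F acute colitis, Elane and Prtn3 passed (edgeR, adjusted p = 0.039 and 0.0451) while Mpo, Ctsg and Ms4a3 did not (0.174, 0.174 and 0.331). Ms4a3 was also lost without App NL-G-F control (edgeR adjusted p = 0.135).

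**Figure D4:**
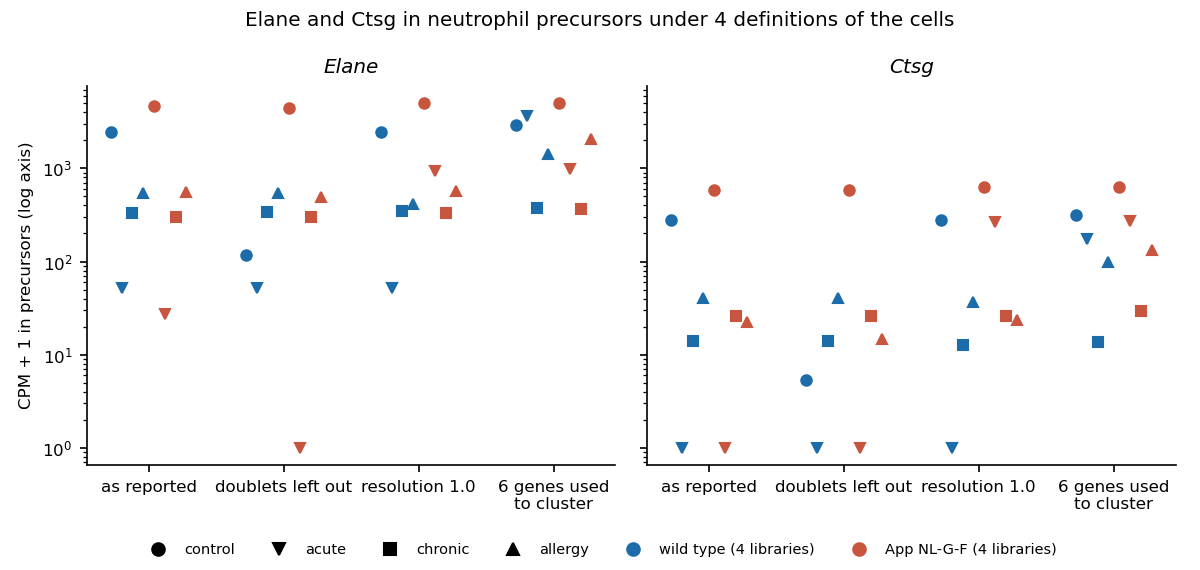
Elane (left) and Ctsg (right) in neutrophil precursors of each library, as CPM + 1 on a log axis, under 4 definitions of the cells: as reported, doublets left out, a resolution of 1.0, and the 6 genes used to cluster. Colour gives the genotype and the symbol the treatment. As reported, both acute libraries lie lowest, whereas Elane in WT acute colitis lies at 3675 CPM when the 6 genes were used to cluster.

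Of the 31 precursors of App NL-G-F acute colitis, 22 carried hashtag 7, whose T cells had low levels of immediate-early genes (961 CPM for 10 genes such as Fos and Junb, against 3283 to 6306 in the 16 hashtag groups of the high set). Such groups gave 26 precursors among 16445 cells, and the high groups gave 259 among 27501. Without hashtag 7 of App NL-G-F acute colitis the difference of Elane was -6.70 (edgeR adjusted p = 2.41e-05), and with high groups alone it was -6.79 (edgeR adjusted p = 2.49e-05).

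The other granule and maturation genes were counted by lists. Of 11 granule partners, 10 were tested and 1 was lower in acute colitis, Srgn (serglycin, the proteoglycan that packs granule proteases), which fell by 3.88 on the log2 scale (edgeR, SE 0.54, adjusted p = 0.0143). Lyz2, Serpinb1a and Cd63 had log2 differences of 0.34, -0.48 and -0.57. Of 12 secondary and tertiary granule genes all 12 had positive differences and 0 passed, with a median of 0.64 against -0.01 over all genes. Camp had 1.11, Ltf 0.72, Ngp 0.72 and Lcn2 0.30 on the log2 scale.

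No gene passed among 6 myeloid transcription factors tested (Cebpb -0.76, Cebpe 0.49, Runx1 0.39 and Spi1 0.03), 9 promyelocyte companions (Hdc -1.20, Mgst1 0.49, Alas1 -0.39 and Fcnb 0.26), or 7 cell-cycle genes (Tyms -0.75, Top2a 0.48, Cdk1 0.34 and Mki67 0.11). The medians of these lists were 0.04, -0.89 and 0.11, against -0.01 over all genes. Of the promyelocyte companions 3 of 9 were positive, and the lowest, named after their values had been seen, were Cst7 (-3.96) and Calr (-2.68), both with an edgeR adjusted p = 0.0649. Of 10 immediate-early genes 0 had positive differences and 0 passed, with a median of -1.13 (Junb -2.06, Zfp36 -1.61, Fos -1.14 and Ier2 -0.11). Markers of other cells were low, with a summed level of 62.1 to 277 CPM in precursors. Of these 10 markers 3 were tested and 0 passed, with a median of -1.87. Of 7 monocyte markers, 5 were tested, 1 was positive and 0 passed, with a median of -5.23. The 7 markers summed to 741 to 1530 CPM, mostly Ly6c2 (0.27). The median is the value of 1 gene of lower level than Ly6c2, so it is not a measure of size for these markers. The part of the immediate-early genes and of these markers in the acute difference was not tested.

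Genotype was compared over the 4 treatments. In precursors the log2 differences of App NL-G-F minus WT were between -0.19 (Mpo, SE 0.50) and 0.46 (Ctsg, SE 0.40), with Ms4a3 at 0.32 (SE 0.27), Prtn3 at 0.18 (SE 0.31), Elane at 0.16 (SE 0.30) and Prss57 at 0.08 (SE 0.24). None of the 6 passed (edgeR, every adjusted p = 0.9998). Of 5827 genes 3, or 0.0515%, passed, 1 as higher (0.0172%, Ccl5) and 2 as lower (0.0343%, Apoe and Krt81), all named after their values had been seen, and 3.23% had an unadjusted p under 0.05. The 95% intervals were -0.49 to 0.81 for Elane and -1.28 to 0.89 for Mpo, so differences within these bounds were not resolved. The direction changed under several alternatives for all but Ms4a3. No list had a gene that passed, and 0 of 10 immediate-early genes had positive differences, with a median of -0.77 against 0.01 over all genes.

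In Elane-led cells, which had more cells and a smaller spread, neither comparison moved the 6 genes past the threshold. For genotype, the ranges of Ms4a3 overlapped, 198 to 403 CPM in the WT libraries against 265 to 700 in those of App NL-G-F, with a log2 difference of 0.51 (edgeR, SE 0.18, unadjusted p = 0.018, adjusted p = 0.755). The other 5 genes had differences of 0.02 (Elane) to 0.24 (Prss57). Of 10903 genes tested, 0 passed by edgeR, 699 (6.41%) had an unadjusted p under 0.05, and 10 passed by DESeq2. Ms4a3 passed without WT control (0.76, edgeR adjusted p = 0.0243) and without App NL-G-F control (0.78, edgeR adjusted p = 0.0167).

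For acute colitis in Elane-led cells, Ms4a3 was at 350 (WT) and 265 CPM (App NL-G-F) in control and at 403 and 700 in acute colitis. Prss57 was at 74.7 and 39.1 CPM in control and at 83.8 and 91.7 in acute colitis. Elane was at 5268 and 2517 CPM in control and at 3759 and 3744 in acute colitis, so the control libraries lay on either side of the acute ones. Log2 differences were 0.88 for Ms4a3 (edgeR, SE 0.26, adjusted p = 0.487), 0.75 for Prss57 (SE 0.34), 0.44 for Ctsg (SE 0.24), 0.28 for Prtn3 (SE 0.25), 0.07 for Elane (SE 0.32) and -0.16 for Mpo (SE 0.32). Of 10903 genes, 2, or 0.0183%, passed as lower (Apoe and Hbb-bs, named after their values had been seen), none of the 6 did, and 7.93% of the genes had an unadjusted p under 0.05. Without WT control 4 of the 6 passed as higher in acute colitis, and 48 genes passed in all (edgeR, Ms4a3 1.41, adjusted p = 0.00482; Prss57 1.40, 0.0127; Ctsg 0.94, 0.0286; Prtn3 0.82, 0.0296), so this library decides that count.

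**Figure D5:**
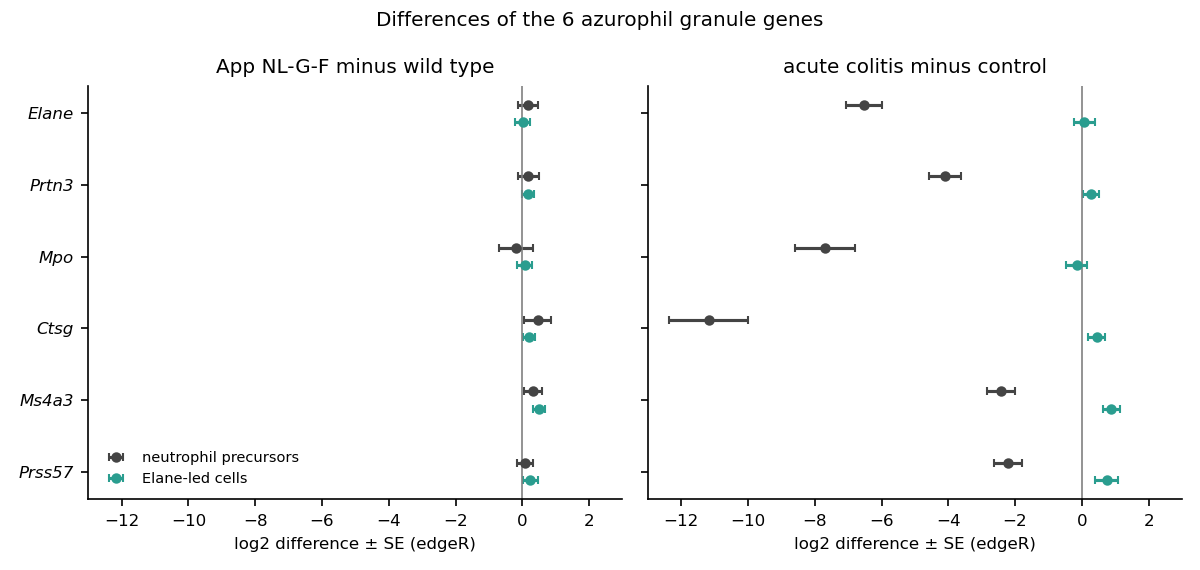
Log2 difference of each gene for App NL-G-F minus WT (left) and acute colitis minus control (right), in neutrophil precursors (grey) and Elane-led cells (green), with bars for 1 SE on either side, from edgeR. In precursors the acute differences lie between -11.18 and -2.20, and in Elane-led cells all differences lie between -0.16 and 0.88. The point of Ctsg on the right rests on 0 UMIs in the acute libraries and is not a measure of size.

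Elane-led cells of single hashtag groups gave the spread within libraries. In the 12 groups with at least 50 such cells, the 6 genes summed to 11111 to 21745 CPM. Groups of low immediate-early level (11256 to 21745 CPM, 5 groups) and of high level (11111 to 18758 CPM, 7 groups) overlapped. Within App NL-G-F chronic colitis, hashtags 4, 6 and 7 were at 21332, 18758 and 16788 CPM. In precursors only hashtag 6 of WT chronic colitis held 50 cells (69 cells, 1145 CPM).

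The genes most like the 6 over the 21 named cell types, by Pearson's correlation of log2(mean CPM + 10) with their sum among 7541 genes, were Gm11505 (r = 0.84), Mfsd13a (0.77), Rab44 (0.77), Ctdspl (0.75), Nfe2 (0.75), Plppr3 (0.75), Ifitm1 (0.75), Hacd1 (0.75), Adgrg3 (0.75) and Def8 (0.74). Cell types share libraries and depth, so these values are a description. For the 6 genes themselves the correlation with the sum was 0.77 (Prss57) to 0.95 (Mpo). Gm11505 also ranked first when the Elane-led cells were added as a type (r = 0.88), where it was at 306 CPM, against 279 in progenitors.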

How the data were processed

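The authors made feature-barcode matrices with Cell Ranger (version 6.1.2 per the labels) on mm10 and deposited UMI counts per gene and barcode, without normalization or cell filter. These deposited counts were used as they are, and no column was left unused (0). The members and gene lists were chosen with earlier results of these data known.

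Cells were called anew (order-of-magnitude cutoff for 3000 expected cells, then a test against barcodes ranked 45000 to 90000 with 1000 simulations at a false discovery rate of 0.01 for barcodes of at least 500 UMIs). Cells with fewer than 200 genes or over 5% mitochondrial UMIs were removed, the limits that the study's methods state. Counts were scaled to 10000 per cell, and 2000 variable genes, 30 components and 20 neighbours gave Leiden clusters at a resolution of 0.5, without the 6 genes. Myeloid and progenitor clusters were clustered once more, a step chosen after the data had been seen. A cluster was named from at least 3 markers of 1 of 22 lists. Clusters led by the 6 genes or histone genes, or with over 40% of cells of several hashtags, got no name. The automatic Scrublet threshold marked almost no cell, so doublets were kept, and the alternative left out the top-scoring 0.8% of cells per 1000 cells.

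UMIs were summed per class and library. edgeR 4.0.16 (glmQLFit, glmQLFTest, TMM, filterByExpr; R 4.3.3, limma 3.58.1) was fitted with genotype and treatment on all 8 libraries, with 3 residual degrees of freedom, p-values adjusted by Benjamini-Hochberg over all genes tested. Sums held 117454 to 1880945 UMIs in precursors and 489013 to 9128532 in Elane-led cells. On simulated counts of the precursor genotype comparison (5827 genes), 90% of genes changed by 2 and 98% of those changed by 3 on the log2 scale were recovered, and 98% and 100% in Elane-led cells (10903 genes). These counts had the same dispersion for all genes and no treatment effect. The recovery therefore need not hold for the 6 genes in precursors, where most of their UMIs lay in few cells. DESeq2 1.42.0 was an alternative. Named were the 6 genes, the 4 genes of each list with the highest mean CPM in precursors (for marker lists the counts), and the 10 genes most like the 6. Clustering used scanpy 1.11.5 and leidenalg 0.10.2 under Python 3.11.15, with scipy 1.17.1, numpy 2.4.6 and pandas 2.3.3.

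Alternatives were another scaling, DESeq2, no filter, 1 factor left out, cells of 1 hashtag, doublets left out, a resolution of 1.0, the 6 genes kept for clustering, the immediate-early sets, App NL-G-F acute colitis without hashtag 7, ambient UMIs subtracted, other totals and groupings, and each library left out. The Elane-led cells and their fits were added after the data had been seen.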

Additional observations from a re-analysis of the deposited data

Results flagged for a closer look

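Each level below is the CPM of a library that stood apart from the other 3 of its genotype, with a gap to the nearest of them, as a share of the whole range, above Dixon's 95% limit for 4 values. This was so in 14 of 72 groups of 4, and chance gives about 1 in 20.

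In neutrophil precursors, App NL-G-F control stood above the other libraries of its genotype for Elane (4697 CPM), Mpo (2083), Prtn3 (4863) and Ctsg (589), and WT control for Ctsg (280). In both libraries these genes lay mostly in a few cells with at least 100 UMIs of the 6 genes, 11 and 6 in number.

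In neutrophils, App NL-G-F chronic colitis stood apart for Elane (57.5 CPM), Mpo (69.3) and Ctsg (32.0) and WT chronic colitis for Mpo (28.7), and lymphocytes held 256 and 421 CPM of the 6 genes in these libraries. Without the 19 and 12 lymphocytes that had at least 10 UMIs of the 6 genes, the lymphocyte levels were 18.7 and 32.9 CPM. WT acute colitis had the lowest Ms4a3 level, 3.97 CPM, from 2 UMIs.

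Elane in progenitors was highest in WT control (1819 CPM), and Prtn3 in Elane-led cells was lowest in App NL-G-F control (3691 CPM). In basophils, Mpo was at 0 CPM in the 9 cells of WT acute colitis, and Ctsg was lowest in App NL-G-F acute colitis (1700 CPM).

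For Ms4a3 and Prss57 the acute colitis difference had opposite directions in neutrophil precursors and Elane-led cells in both genotypes. The log2 difference in precursors less that in Elane-led cells was -3.34 for Ms4a3 and -3.40 for Prss57. This difference between the classes was not tested.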

How the results depend on the processing

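Each condition was 1 library, and the classes were rebuilt from the same cells. No paired analysis was possible because each condition holds 1 library, so no replicate numbers pair libraries. With treatment as a factor, the reported fits already compare the genotypes within treatments. Where an alternative changed a value, the cause was not tested unless it is named.

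The mean summed level in precursors was 1907 CPM without App NL-G-F control and that in lymphocytes 51.4 without WT chronic colitis. In progenitors the mean of per-cell CPM was 4458, and in basophils the mean of per-cell CPM was 3114 and the level with the 6 genes kept for clustering 9013. Between low and high secondary granule groups, the difference of Elane was 3.70 with 2 groups, and after thinning that of Ms4a3 was 2.995 and that of Prss57 -0.48.

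For acute colitis in precursors (16 genes), 53 genes passed with DESeq2, 149 with no filter, 110 in high immediate-early groups, 119 when hashtag 7 was dropped from the acute App NL-G-F library, 6 with ambient UMIs subtracted, 6 with the 6 genes kept for clustering, and 0 with doublets left out and at a resolution of 1.0. Leaving out single libraries gave 5 (App NL-G-F acute) to 31 (App NL-G-F chronic), with 9 without App NL-G-F control, 25 without WT allergy and 26 without App NL-G-F allergy. All differences of the 6 genes stayed negative under the alternatives run. Ms4a3 did not pass with ambient UMIs subtracted (edgeR adjusted p = 0.116), and Prss57 passed with no filter (0.00172) without genotype as a factor (0.0472) and without App NL-G-F chronic colitis (0.0456). The low immediate-early groups held too few precursors for a fit, and the high groups held 9 (WT) and 7 (App NL-G-F) in acute colitis.

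For genotype in precursors (3 genes), 30 passed with no filter, 0 with treatment left out, 9 in high groups and 6 without hashtag 7, and 1 (either control) to 17 (App NL-G-F chronic) when single libraries were left out, with 13 without WT chronic. The direction changed for Mpo with treatment left out (1.02), doublets left out (0.22), a resolution of 1.0 (0.71) and ambient UMIs subtracted (0.33). It changed with cells of 1 hashtag for Elane (-0.40), Prtn3 (-0.17), Ctsg (-0.056) and Prss57 (-0.092), with the 6 genes kept for clustering for Elane (-0.076) and Prtn3 (-0.12), in high groups for Elane (-0.32), Prtn3 (-0.52) and Prss57 (-0.097), and without hashtag 7 for Prtn3 (-0.19). Without single libraries the difference ran from -0.23 to 0.32 for Elane, -1.15 to 0.39 for Mpo, -0.081 to 0.58 for Prtn3 and -0.29 to 1.12 for Ctsg.

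For genotype in Elane-led cells (0 genes), 10 passed with DESeq2, 171 with no filter, 35 in low groups, 3 in high groups and 2 without hashtag 7, and 0 to 46 without single libraries (46 without App NL-G-F control, 43 without WT control). Elane changed direction with treatment left out (-0.0030), cells of 1 hashtag (-0.044) and a resolution of 1.0 (-0.0056). In low groups, where WT acute colitis had 2 cells, all 6 did (Elane -0.26, Mpo -0.52, Prtn3 -0.29, Ctsg -0.44, Ms4a3 -0.38 and Prss57 -0.56). Without single libraries Elane ran from -0.26 to 0.34 and Mpo from -0.19 to 0.41.

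For acute colitis in Elane-led cells (2 genes), 8 passed with DESeq2, 169 with no filter, 0 with genotype left out, 4 with cells of 1 hashtag, 0 with doublets left out, 750 in low groups, 37 in high groups and 0 with ambient UMIs subtracted, and 1 (App NL-G-F acute) to 82 (App NL-G-F control) without single libraries. The direction changed for Elane with doublets left out (-0.21), a resolution of 1.0 (-0.010) and the 6 genes kept for clustering (-0.20), and for Mpo in low groups (0.41). In high groups it changed for Mpo (0.51), Prtn3 (-0.55), Ctsg (-0.56) and Ms4a3 (-0.81), whereas Ms4a3 passed in low groups (2.24, edgeR adjusted p = 0.000112). Without single libraries Elane ran from -0.48 to 0.77, Mpo from -0.72 to 0.58, Prtn3 from -0.20 to 0.82, Ctsg from -0.0011 to 0.94 and Prss57 from -0.0075 to 1.40.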
